A study of Homo sapiens with 30 samples.

Results

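The nuclear genes of the respiratory chain were followed in SW1783, a human astrocytoma cell line, after exposure to extracts of 4 traditional herbal formulas. The members were all protein-coding genes of GENCODE release 29 whose symbols begin with NDUFA, NDUFB, NDUFC, NDUFS, NDUFV, UQCR, COX4I, COX5, COX6, COX7, COX8 or ATP5, together with SDHA, SDHB, SDHC and SDHD, matched by Ensembl identifier. Hyphenated read-through names were left out, which removed 2 symbols. This gave 97 members among the 60675 entries of the count table: 39 subunit genes of complex I, 8 genes of its assembly factors (NDUFAF), 4 genes of complex II, 9 of complex III, 17 of complex IV and 20 of complex V. The prefixes take in some genes that are not subunits, such as the inhibitor ATP5IF1, and leave out others, such as CYC1. Complexes were assigned by symbol, so NDUFA4 and NDUFA4L2 are counted with complex I throughout, although NDUFA4 has since been assigned to complex IV.

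The respiratory chain passes electrons from NADH through complex I, or from succinate through complex II, to ubiquinone, then through complex III and cytochrome c to complex IV, which reduces oxygen. Complexes I, III and IV pump protons across the inner mitochondrial membrane, and complex V, the ATP synthase, uses the return flow to make ATP. Most subunits are encoded in the nucleus and imported, while a few core subunits of complexes I, III, IV and V are encoded by the mitochondrial genome, so each of these complexes needs both genomes. In astrocytes, as in many tumour cells, glycolysis supplies much of the ATP beside this pathway.

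Cells were exposed for 24 h to aqueous ethanol extracts of Soshiho-tang or Yijin-tang (3 libraries for each of 20, 100 and 500 µg/mL), Okbyeongpung-san (2 libraries per concentration) or Soyo-san (1 library per concentration), or to DMSO vehicle (3 libraries). The vehicle labels give 0.1% DMSO, and the series description gives another concentration. RNA sequencing gave estimated counts per gene, summing to between 23.9 M and 33.1 M counts per library over the 30 libraries (median 27.4 M). The labels do not say whether the libraries of 1 group are separate cultures, and the p-values measure the spread between libraries, which may be technical. One cell line stands for astrocytic tumour cells here, and its astrocyte label was only partly borne out by markers: VIM was at 3760 to 5580, CD44 at 2180 to 3000 and SLC1A3 at 18.1 to 35.2 CPM (counts scaled to a common library size), whereas GFAP, S100B and AQP4 reached at most 0.205, 0.251 and 0.0703 CPM. ALDH1L1 and SLC1A2 reached at most 0.0965 and 0.388 CPM. Some markers of other lineages had levels like or above that of SLC1A3: TUBB3 (neuron) 59.6 to 114, KDR (endothelium) 31.4 to 44.1 and KRT18 (epithelium) 49.1 to 154 CPM. Others of the same lineages, STMN2, CDH5 and EPCAM, reached at most 0.216, 0.0984 and 0.205 CPM. In bulk RNA, fewer cells of a kind and less RNA per cell cannot be told apart.

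Some libraries stood apart. The vehicle libraries formed a library set of their own by their labels, so the set and the treatment cannot be told apart in any comparison with vehicle, whereas the Soshiho-tang and Yijin-tang libraries shared one set. The Okbyeongpung-san libraries came from batch E (replicate 2) and batch D (replicate 3) by their labels. At 20 and 100 µg/mL the batch E libraries gave 0.493% and 0.464% of their counts to the 97 members, below the 0.518% to 0.583% of the vehicle libraries, while the batch D libraries gave 0.62% and 0.607%. Counts from the mitochondrial genome made up 10.47% to 10.7% of the vehicle libraries and 5.68% to 10.61% of the extract libraries. Replicate 3 at 500 µg/mL Yijin-tang was the highest of these extract libraries, against 6.7% and 7.35% in replicates 1 and 2 of its group. It gave 0.586% of its counts to the members, against 0.679% and 0.647% in the same replicates. Its counts also differed more from theirs, with chi-square values per degree of freedom over genes of 39.47 and 23.52, against 4.3 between replicates 1 and 2. Replicate 3 at 20 µg/mL Soshiho-tang also differed, with values of 14.27 and 25.75 against replicates 1 and 2, and 5.62 between those. Its mitochondrial share was 9.03%, against 6.8% and 6.37%.

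Promoter windows are shown first for 5 members that carry a binding motif of a factor known to drive respiratory chain genes, and for NDUFB1, the member with the largest log2 increase in each of the 9 tested comparisons with vehicle, which carries none. NRF1 was searched as the half-site GCGCA joined to its reverse complement, and the ETS motif bound by GABP as CCGGAAG, on both strands. The search covered the 250 bases before the RefSeq start of each gene, in sequence of GRCh38.p14, for the 79 members with an entry. RefSeq starts can differ from those of GENCODE. The NDUFB1 window lies inside its GENCODE gene (chr14:92116122-92121917), and the SDHD and ATP5F1C windows reach past their GENCODE starts (112086773 and 7788129). The NRF1 motif was found in 3 of these 79 members (3.8%), against 1.13% of all 27305 promoters. The ETS motif was found in 18 members (22.8%), against 8.82% of all promoters. NDUFAF4 and UQCR11 are shown from these because they were also higher than vehicle in tests given below. The windows therefore cannot show whether the motif goes with an increase. The hypoxia motif ACGTG was in 16 members (20.3%), against 18.7%, and the ATF4 motif TGATGNAA in 1 member, NDUFS6 (1.27%), against 3.19%. These are matches of letters and not bound sites, and no 2 of the matches printed here overlap. In the windows, written 5′ to 3′ on the strand of the gene, capitals mark the NRF1 motif (10 bases) and the ETS motif (7 bases, also as its reverse complement CTTCCGG). The windows lie at chr11:112086718-112086817 (+) for SDHD, chr10:7788077-7788176 (+) for ATP5F1C, chr3:120596132-120596231 (+) for NDUFB4, chr6:96897986-96898085 (-) for NDUFAF4, chr19:1605527-1605626 (-) for UQCR11 and chr14:92121707-92121806 (-) for NDUFB1.
SDHD: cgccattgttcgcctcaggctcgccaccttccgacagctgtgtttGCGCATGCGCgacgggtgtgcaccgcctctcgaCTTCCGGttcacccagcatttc
ATP5F1C: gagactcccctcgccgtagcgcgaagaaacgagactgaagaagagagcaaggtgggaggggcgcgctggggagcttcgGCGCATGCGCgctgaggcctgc
NDUFB4: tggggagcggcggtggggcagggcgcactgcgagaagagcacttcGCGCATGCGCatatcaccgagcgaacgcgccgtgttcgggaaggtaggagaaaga
NDUFAF4: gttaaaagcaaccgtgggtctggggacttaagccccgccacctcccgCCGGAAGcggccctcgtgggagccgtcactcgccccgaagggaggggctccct
UQCR11: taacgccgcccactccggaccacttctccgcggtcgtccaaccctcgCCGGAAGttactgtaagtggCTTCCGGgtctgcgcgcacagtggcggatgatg
NDUFB1: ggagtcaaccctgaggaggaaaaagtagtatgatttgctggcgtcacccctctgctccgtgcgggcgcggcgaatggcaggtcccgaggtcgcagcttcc

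In vehicle, single members of each complex differed widely in level. Transcript length was taken as the median over the annotated protein-coding transcripts of a gene, short ones included (856 bases for ATP5F1B and 910 for ATP5F1A). It can differ from the length of the transcripts expressed, so levels and ranks per kb are rough. Per kb of transcript, the median member of complex IV was at 122 CPM per kb, that of complex III at 87.9, of complex V at 82.9, of complex II at 74.6 and of complex I at 52.9. The assembly factors of complex I were lower, with a median of 13.7 CPM per kb and a range of 2.34 to 69.3. The highest members were ATP5F1B (the catalytic beta subunit of ATP synthase) at 517, ATP5MF at 401 and ATP5F1A (the alpha subunit) at 296 CPM per kb. Without division by length the highest were ATP5F1B at 442, ATP5F1A at 269 and UQCRC1 at 169 CPM. The lowest of the 91 members that passed the count filter were NDUFA4L2 at 0.392, COX6B2 at 0.439 and UQCRHL at 1.55 CPM per kb.

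**Figure D1:**
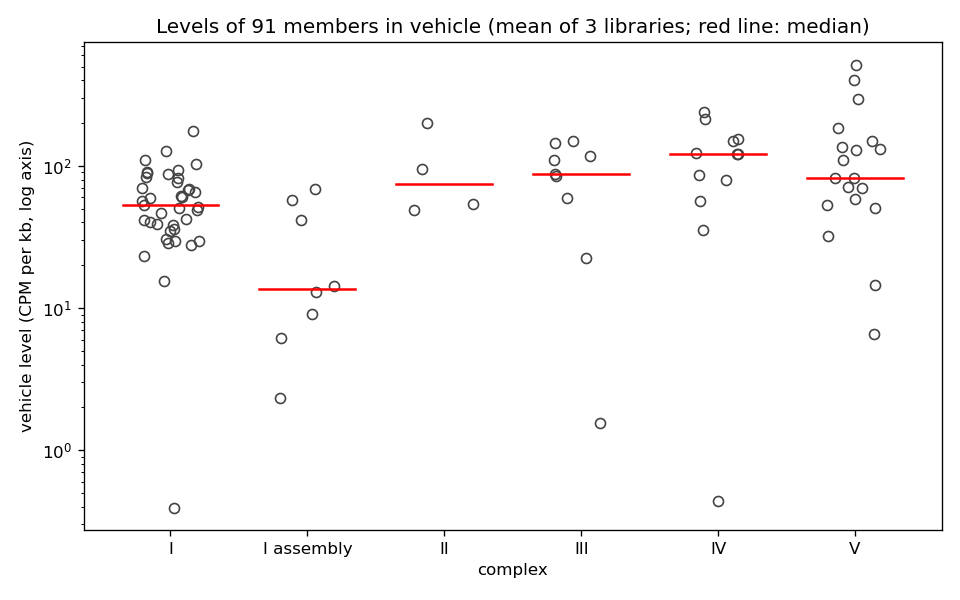
Mean vehicle level of each of the 91 tested members (CPM per kb of transcript, logarithmic axis, mean of 3 libraries), by complex, with the median of each complex as a red line. Complex IV has the highest median (122) and the complex I assembly factors the lowest (13.7), and 1 member each of complexes I, III and IV lies near or below 1.55.

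Where a subunit has tissue-specific copies, the ubiquitous copy carried nearly all counts. NDUFA4, named for complex I but since assigned to complex IV, was at 108 CPM in vehicle and its hypoxia-responsive relative NDUFA4L2 at 0.461 CPM. COX4I1 was at 108 CPM and COX4I2, its lung and hypoxia isoform, was listed at 0 in all 30 libraries. COX6A1 stood at 70.8 CPM beside 0.0276 CPM for the muscle isoform COX6A2, COX7A2 at 66 CPM beside 0.153 CPM for the muscle isoform COX7A1, and COX6B1 at 102 CPM beside 0.73 CPM for the testis isoform COX6B2. The 6 members that failed the filter in both fits were COX4I2, COX6A2 (at most 0.0419 CPM), COX7A1 (0.334), COX7B2 (0.246), COX8C (0.0371) and ATP5MGL (0.176), so all tests cover the remaining 91 members.

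Against vehicle, more members were called higher than lower after Soshiho-tang or Yijin-tang, with differences that were mostly well under a doubling. Calls are adjusted p under 0.05 by the quasi-likelihood test of edgeR, adjusted over all genes tested after Benjamini and Hochberg, and fold changes are on the log2 scale with standard errors (SE). At 500 µg/mL Soshiho-tang, 36 members were higher and 2 lower (41.8% of members called, against 43.9% of all genes), with a median log2 fold change of 0.16 over the members and 0.01 over all genes. The share called was near the background, and by direction 39.6% of members were higher, against 22.8% of all genes, and 2.2% were lower, against 21.1%. At 20 µg/mL Soshiho-tang, 13 members were higher and 4 lower (14.3% and 4.4% of members, 18.7% called), with 21.8% of all genes called (11.3% higher and 10.5% lower). At 100 µg/mL, 16 were higher and 3 lower (17.6% and 3.3% of members, 20.9% called), with 21% of all genes called (10.8% higher and 10.2% lower). The members' median was 0.09 at both concentrations, and the shares called were near the background at both. With Yijin-tang at 20 µg/mL, 34 members were higher and 1 lower (median 0.19), with 19.8% of all genes called (10.6% higher and 9.2% lower). At 100 µg/mL, 44 were higher and 1 lower (median 0.21), with 25.6% of all genes called (13.1% higher and 12.5% lower). The 100 µg/mL libraries thus had the largest share of higher members, 48.4%. At 500 µg/mL, 26 were higher and 2 lower (28.6% and 2.2% of members, 30.8% called, median 0.13). Of all genes, 31.3% were called there (16% higher and 15.2% lower), so the share called was near the background. Without replicate 3 of that group, 25 were higher and 1 lower (median 0.16). All 6 comparisons share the same 3 vehicle libraries, so they are not independent of each other. Of the vehicle libraries, replicate 3 gave the lowest share of its counts to the members (0.518%). Without it the numbers called were 11, 12 and 22 at 20, 100 and 500 µg/mL Soshiho-tang, and 15, 26 and 14 at the same Yijin-tang concentrations. Yijin-tang gave 22 calls at 20 µg/mL without vehicle replicate 2 and 16 without its own replicate 3, and 21 at 100 µg/mL without its own replicate 1, while Soshiho-tang gave 10 at 20 µg/mL without its replicate 1.

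**Figure D2:**
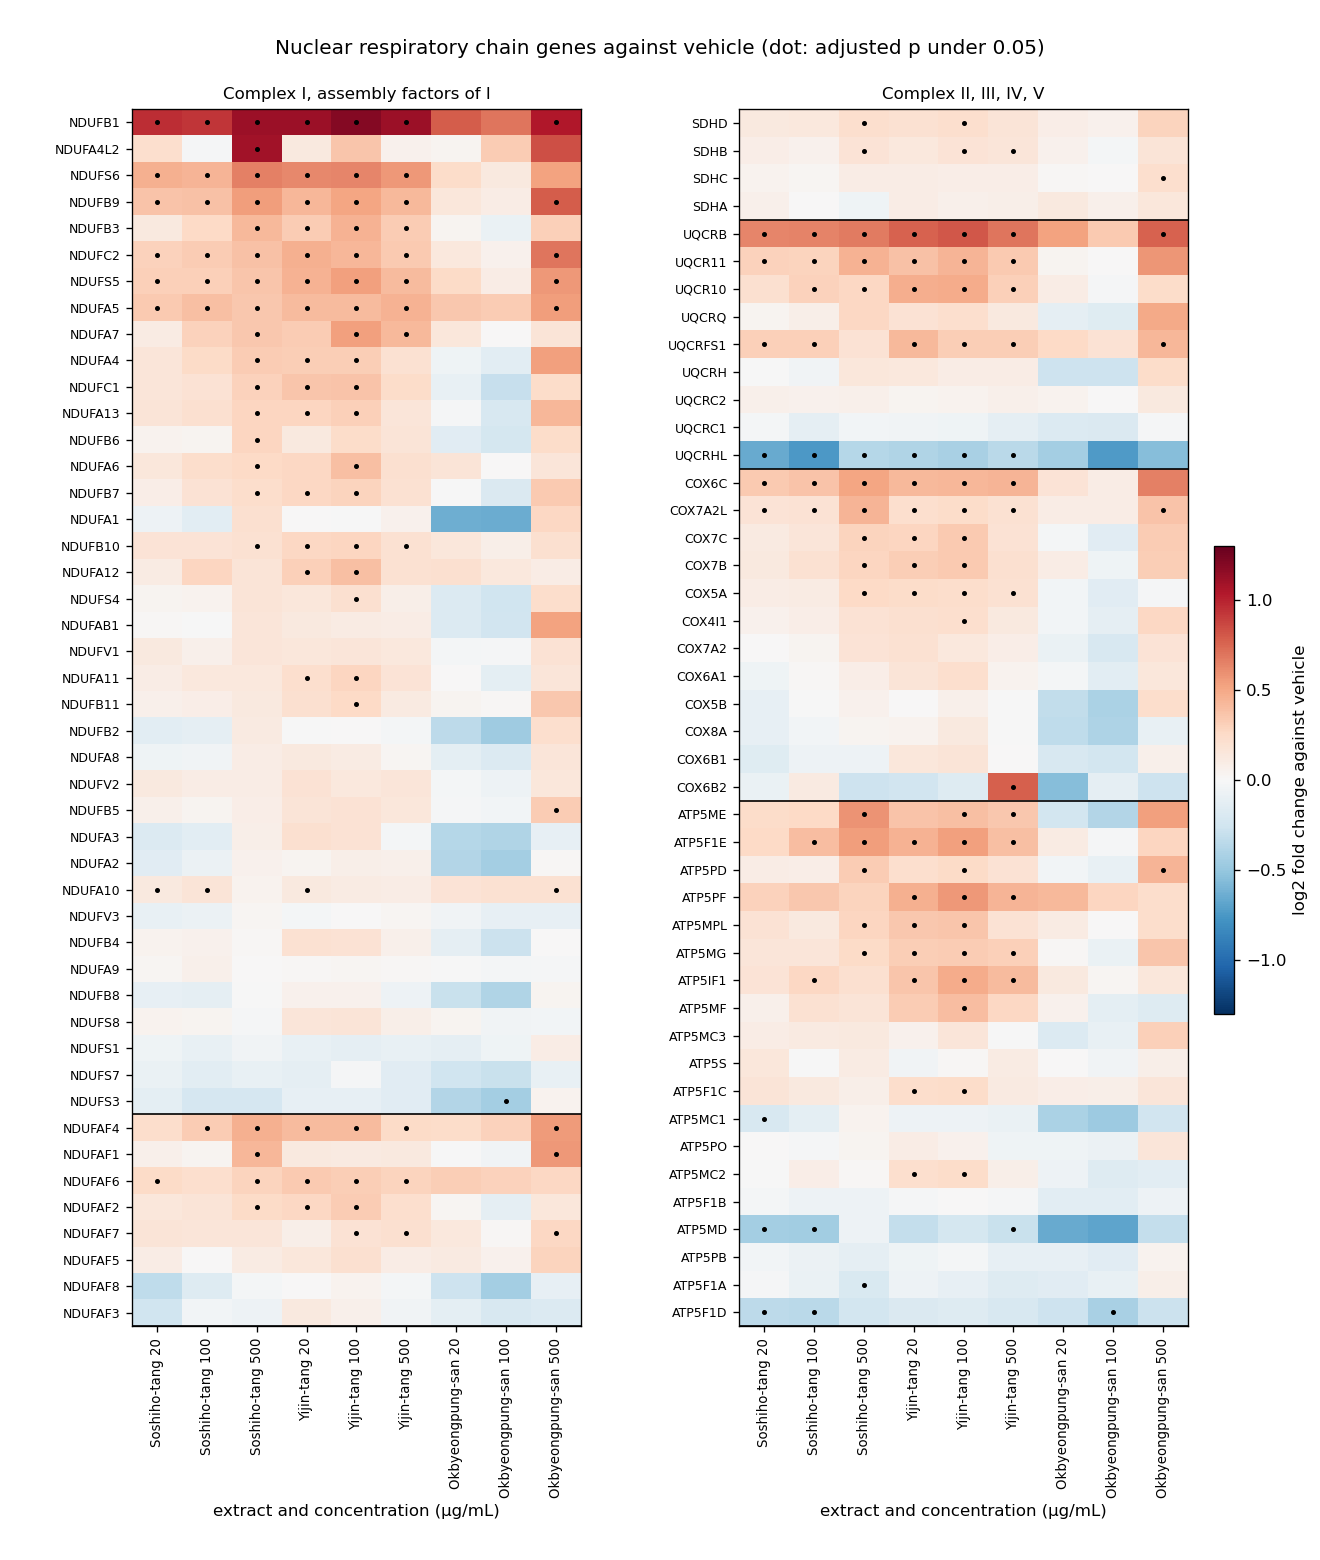
Log2 fold change of the tested members against vehicle, 1 member not drawn (colour, red higher and blue lower), by complex (rows) and by extract and concentration in µg/mL (columns), with a dot where the adjusted p was under 0.05. NDUFB1 and UQCRB are the strongest rows that are red in all columns, UQCRHL is blue in all of them, and the Okbyeongpung-san columns at 20 and 100 hold 2 dots in all, both on lower members.

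Library composition moved in the same comparisons. The 97 members took 0.643% to 0.677% of counts at 500 µg/mL Soshiho-tang and 0.621% to 0.716% at 100 µg/mL Yijin-tang, against 0.518% to 0.583% in vehicle, without overlap. Fold changes against vehicle went with GC content across genes: Spearman's rho was -0.19 to -0.34 over the members and -0.23 to -0.53 over all genes in the 9 comparisons with vehicle. Genes share libraries and base composition here, so rho is a description only. The members' transcripts were shorter (median 716 bases, against 1700 for all genes) and similar in GC content (47.5% against 48.2%). With offsets for length and GC content, 34 members were higher and 3 lower at 500 µg/mL Soshiho-tang. With the same offsets, 18 were higher and 3 lower at 20 µg/mL and 20 higher and 2 lower at 100 µg/mL Soshiho-tang. For Yijin-tang the offsets gave 27 higher and 2 lower at 20 µg/mL, 36 and 1 at 100 µg/mL, and 25 and 4 at 500 µg/mL. For Okbyeongpung-san at 500 µg/mL they gave 18 higher and 0 lower.

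Complex I, the largest complex, contributed the most calls. At 500 µg/mL Soshiho-tang, 17 of its 39 subunit genes were higher and 0 lower (43.6% called, median 0.16). Of all genes, 43.9% were called there and 22.8% were higher, so the share called was near the background. At 100 µg/mL Yijin-tang 18 were higher and 0 lower (46.2% called), where 25.6% of all genes were called and 13.1% were higher. NDUFB1, an accessory subunit of the membrane arm, showed the largest difference. Its level was 37.9, 41.8 and 44.5 CPM at 500 µg/mL Soshiho-tang and 43.9, 41.3 and 38.5 CPM at 500 µg/mL Yijin-tang, against 20.2, 20.2 and 16.9 CPM in vehicle. The extract libraries lay far above all vehicle libraries, with log2 fold changes of 1.11 ± 0.09 SE for both extracts (adjusted p = 3.79e-09 and 3.14e-08, edgeR). It was nearly as high at the lowest concentration, with 38.8, 34.1 and 38.7 CPM at 20 µg/mL Soshiho-tang and 39.7, 39.1 and 45.4 CPM at 20 µg/mL Yijin-tang. The single Soyo-san libraries had 39.2, 38.8 and 36.4 CPM at 20, 100 and 500 µg/mL. Between 500 and 20 µg/mL, NDUFB1 was not called for Soshiho-tang (0.15 ± 0.09 SE, adjusted p = 0.202) or Yijin-tang (0.00 ± 0.09 SE, adjusted p = 0.989).

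NDUFS6, an accessory subunit next to the NADH-oxidising end of complex I, followed the same pattern at a smaller size. It was at 78.3, 77.3 and 81.2 CPM after 500 µg/mL Soshiho-tang and at 76.1, 72.8 and 73.3 CPM after 500 µg/mL Yijin-tang, against 53, 52.3 and 45.2 CPM in vehicle. No extract library of these groups overlapped the vehicle, and the log2 fold changes were 0.65 ± 0.07 SE (adjusted p = 3.95e-07) and 0.56 ± 0.07 SE (adjusted p = 1.01e-05, edgeR). NDUFB9, NDUFC2, NDUFA5 and NDUFS5, all accessory subunits, were also higher at every concentration of both extracts, with log2 fold changes of 0.54, 0.38, 0.35 and 0.36 at 500 µg/mL Soshiho-tang. NDUFB9 overlaps TATDN1 on the other strand, and TATDN1 was itself higher there (0.77, adjusted p = 9.81e-09), so the NDUFB9 value is uncertain unless the counting used the strand, which the sources used here do not say.

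Of the 8 assembly factors of complex I, 4 were higher and 0 lower at 500 µg/mL Soshiho-tang, where 43.9% of all genes were called and 22.8% were higher. At 100 µg/mL Yijin-tang, 4 were again higher and 0 lower, where 25.6% of all genes were called and 13.1% were higher. NDUFAF4, which acts in early assembly, had 20.7, 19 and 21.7 CPM at 500 µg/mL Soshiho-tang, against 16, 14.6 and 14 CPM in vehicle, and the groups did not overlap (0.46 ± 0.08 SE, adjusted p = 0.000117, edgeR). NDUFAF1, a chaperone of the membrane arm, had 14.4, 17.4 and 17 CPM, against 12.6, 12 and 11.5 CPM (0.43 ± 0.10 SE, adjusted p = 0.000985).

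Complex II, the succinate dehydrogenase that also serves the citric acid cycle, showed small differences. SDHB, its iron-sulfur subunit, was at 77, 75.4 and 76 CPM at 500 µg/mL Soshiho-tang, against 68, 68.7 and 63.8 CPM in vehicle (0.18 ± 0.06 SE, adjusted p = 0.0112, edgeR). SDHD, a membrane anchor, was at 49.9, 48.1 and 49.8 CPM, against 46.3, 39.8 and 40.4 CPM (0.22 ± 0.07 SE, adjusted p = 0.0204). This call held in 10 of 15 alternative settings, with log2 fold changes of 0.08 to 0.30 and adjusted p up to 0.37. It was lost with length and GC offsets, without vehicle replicate 2 or 3, and without Soshiho-tang replicate 1 or 3. SDHD overlaps TIMM8B on the other strand, which was also higher (0.39, adjusted p = 0.0157). SDHC, the other anchor, and SDHA, the flavoprotein, were not called there (0.10, adjusted p = 0.121, and -0.06, adjusted p = 0.313). Summed over its 4 genes, complex II held 329.2 CPM on average at 500 µg/mL Soshiho-tang and 310.4 CPM in vehicle.

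In complex III, UQCRB, a small subunit near the ubiquinone site, had the second-largest log2 increase among members above 10 CPM at every concentration of Soshiho-tang and Yijin-tang. It reached 153, 158 and 153 CPM at 500 µg/mL Soshiho-tang and 148, 147 and 174 CPM at 500 µg/mL Yijin-tang, against 99.1, 103 and 87.1 CPM in vehicle. All extract libraries of both groups lay above the vehicle (0.68 ± 0.09 SE, adjusted p = 3.61e-06, and 0.70 ± 0.09 SE, adjusted p = 9.01e-06, edgeR). UQCR11, the smallest subunit, was also higher in both (0.45 ± 0.10 SE and 0.34 ± 0.10 SE). The structural core proteins UQCRC1 and UQCRC2 were not called at 500 µg/mL of either extract, with log2 fold changes of -0.04 and 0.07 for Soshiho-tang and -0.12 and 0.07 for Yijin-tang.

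UQCRHL was the sole member called lower than vehicle in all 6 comparisons of Soshiho-tang and Yijin-tang. It had 2.66, 2.55 and 2.62 CPM at 500 µg/mL Soshiho-tang, against 3.01, 3.69 and 3.41 CPM in vehicle (-0.37 ± 0.12 SE, adjusted p = 0.0167, edgeR). Its coding sequence of 276 bases differs from that of UQCRH, the hinge subunit, at 4 positions (98.6% identity, longest identical stretch 157 bases), so reads of the 2 genes can be confused and the UQCRHL values are uncertain. UQCRH itself was at 74.9, 78.1 and 82.6 CPM, against 75.1, 74.1 and 63.1 CPM, and was not called (0.15, adjusted p = 0.225). The stretch from base 144 to base 233 of both coding sequences is shown because it holds all 4 differences, in capitals, and shows how little separates the copies.
UQCRH: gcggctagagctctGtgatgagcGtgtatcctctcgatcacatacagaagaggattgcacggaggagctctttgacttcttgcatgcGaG
UQCRHL: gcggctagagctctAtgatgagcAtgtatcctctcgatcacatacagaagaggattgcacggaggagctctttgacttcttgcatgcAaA

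Complex IV was led by COX6C and COX7A2L. COX6C, a structural subunit, was at 72.9, 71 and 73.2 CPM at 500 µg/mL Soshiho-tang, against 53, 52.2 and 46.9 CPM in vehicle (0.51 ± 0.08 SE, adjusted p = 2.98e-05, edgeR). It overlaps VPS13B on the other strand, which moved the other way (-0.33). COX7A2L, a factor that joins complexes III and IV into supercomplexes, had 60.5, 65.3 and 66.6 CPM, against 47.8, 46.4 and 47.3 CPM (0.44 ± 0.06 SE, adjusted p = 6.96e-06). Of the 12 complex IV genes tested, 5 were higher and 0 lower at 500 µg/mL Soshiho-tang (41.7% called). Of all genes, 43.9% were called there and 22.8% were higher. At 100 µg/mL Yijin-tang 6 were higher and 0 lower (50% called), where 25.6% of all genes were called and 13.1% were higher. COX4I1, a regulatory subunit that binds ATP, had 123, 125 and 125 CPM, against 120, 104 and 100 CPM, and fell short of a call (0.19, adjusted p = 0.05).

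Calls in complex V ran both ways. At 20 µg/mL, 7 of its 19 tested genes were higher and 0 lower with Yijin-tang, whereas 0 were higher and 3 lower with Soshiho-tang. Of all genes, 10.6% were higher and 9.2% lower with Yijin-tang, and 11.3% higher and 10.5% lower with Soshiho-tang. ATP5F1E, the epsilon subunit of the central stalk, was higher at 500 µg/mL Soshiho-tang, with 129, 140 and 144 CPM against 98.3, 94.7 and 91.3 CPM in vehicle (0.54 ± 0.12 SE, adjusted p = 0.000754, edgeR). ATP5IF1, which inhibits the enzyme when it runs in reverse, had 80.3, 79.9 and 83.8 CPM at 20 µg/mL Yijin-tang and 69.9, 63.6 and 82.1 CPM at 20 µg/mL Soshiho-tang, against 66.9, 64.5 and 57.9 CPM in vehicle. It was called at all 3 Yijin-tang concentrations (0.36, 0.48 and 0.41 at 20, 100 and 500 µg/mL; adjusted p = 0.00568, 0.000392 and 0.00107) and at 1 of the 3 Soshiho-tang concentrations (0.18, 0.27 and 0.21 at 20, 100 and 500 µg/mL; adjusted p = 0.139, 0.0337 and 0.0601). ATP5MD, a small subunit linked to dimers of the enzyme, was lower at 20 µg/mL Soshiho-tang, with 15.5, 13.9 and 15.4 CPM against 23.8, 20.3 and 16.5 CPM (-0.44, adjusted p = 0.00787). The other complex V genes called lower than vehicle in at least 1 of these 6 comparisons were ATP5F1D, ATP5MC1 and ATP5F1A. When Soshiho-tang was tested directly against Yijin-tang at 20 and 100 µg/mL, no member of complex V was called, so these counts do not show that the extracts differed.

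Over all 6 comparisons with vehicle, 10 members were called higher every time: NDUFA5, NDUFB1, NDUFB9, NDUFC2, NDUFS5 and NDUFS6 of complex I, UQCR11 and UQCRB of complex III, and COX6C and COX7A2L of complex IV. In all, 50 were called higher in at least 1 comparison, 5 were called lower in at least 1, and 36 were called in none. Each comparison called 19.8% to 43.9% of all genes. The share of all genes called at least once was not computed, so these counts have no background beside them. The plot of single libraries shows that for NDUFB1, UQCRB and NDUFS6 all 18 of these extract libraries exceeded the highest vehicle library.

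**Figure D3:**
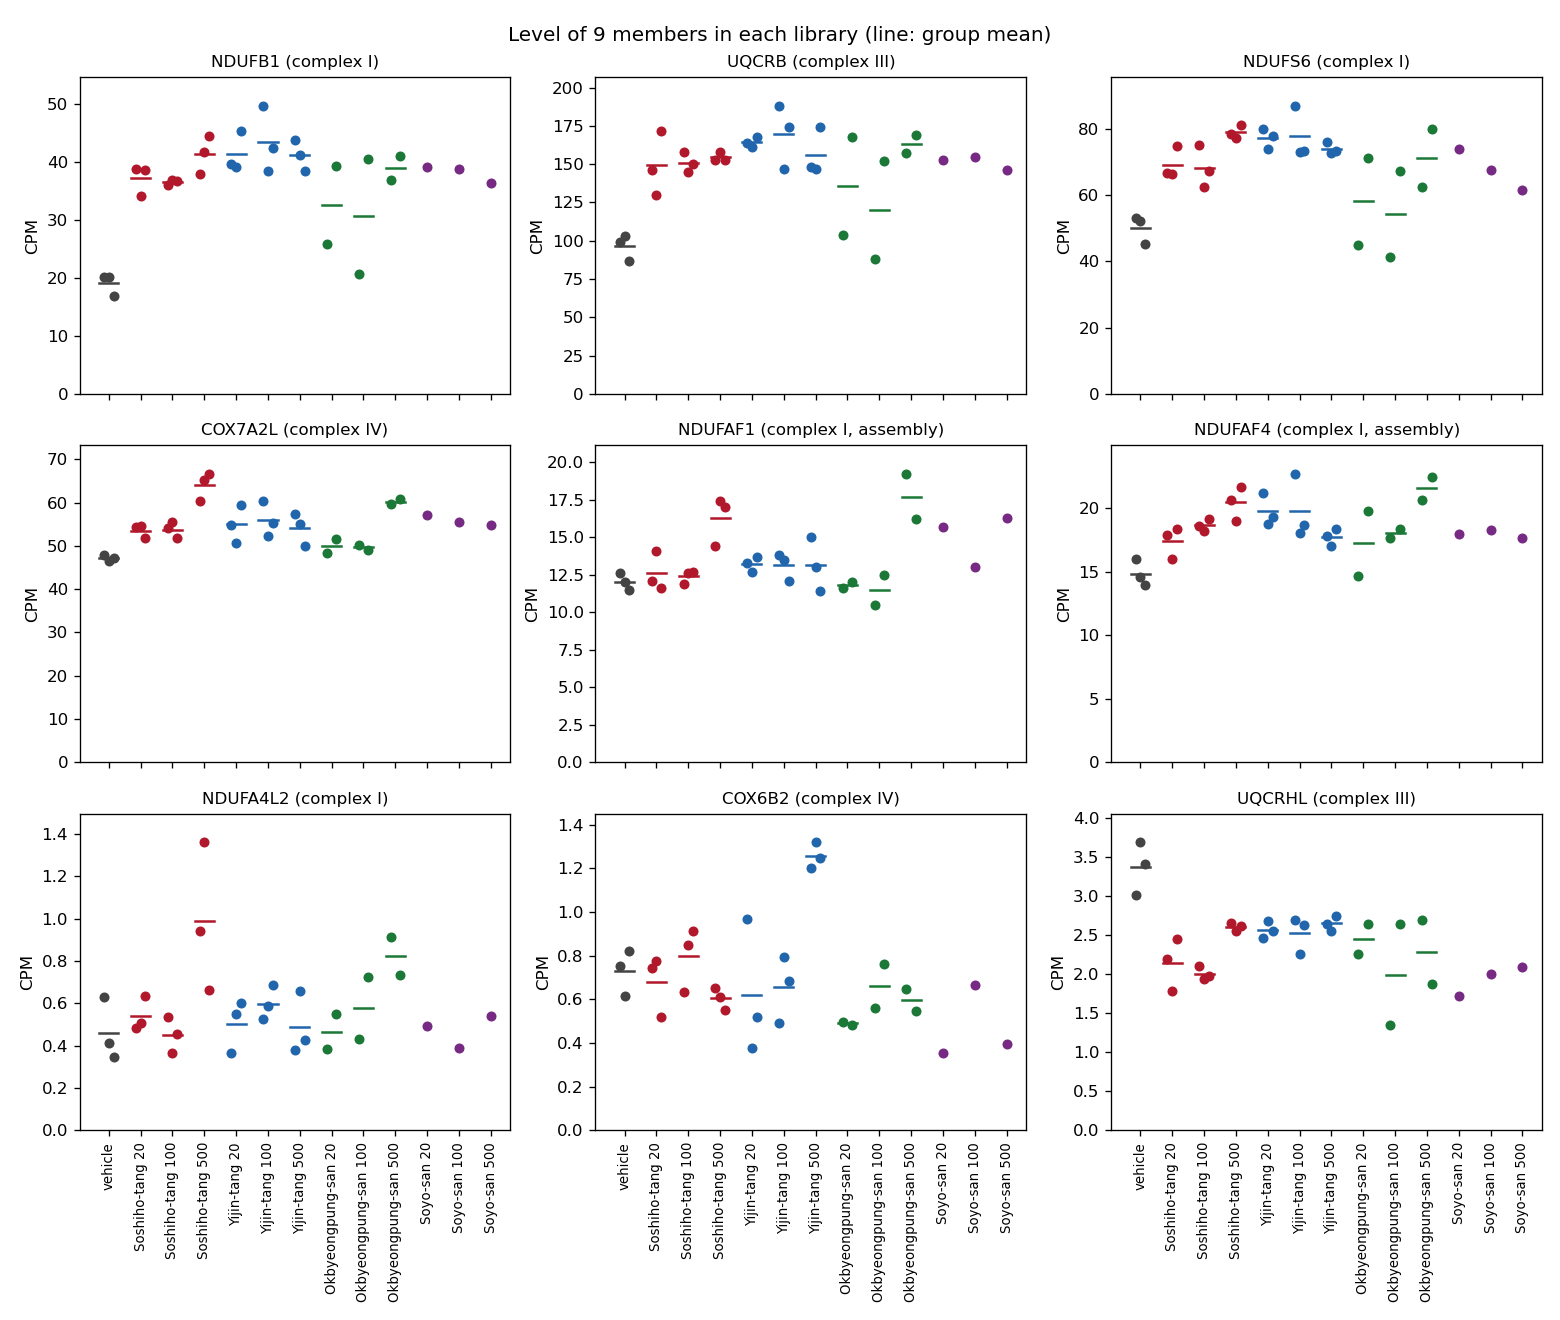
Level of 9 members (CPM, each point 1 library, lines at group means) in vehicle and at rising concentrations of each extract (µg/mL). NDUFB1, UQCRB and NDUFS6 are raised at all Soshiho-tang and Yijin-tang concentrations, COX7A2L and NDUFAF1 have their highest replicated group means at 500 µg/mL Soshiho-tang and Okbyeongpung-san, and the lower Okbyeongpung-san points of NDUFB1, UQCRB and NDUFS6 at 20 and 100 µg/mL are the batch E libraries.

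With Okbyeongpung-san, members higher than vehicle were called at 500 µg/mL. There 16 members were higher and 0 lower (17.6% of members), with 24.7% of all genes called (13.3% higher and 11.4% lower). The median was 0.22 over the members and 0.01 over all genes, and 8 of the 16 were complex I subunits. NDUFB1 was at 37 and 41 CPM, against 20.2, 20.2 and 16.9 CPM in vehicle (1.04 ± 0.25 SE, adjusted p = 0.0132, edgeR), and UQCRB at 157 and 169 CPM, against 99.1, 103 and 87.1 CPM (0.77 ± 0.22 SE, adjusted p = 0.0315). Both pairs lay above all vehicle libraries. SDHC was the complex II gene called, at 105 and 108 CPM against 93.2, 92.7 and 92.6 CPM (0.22 ± 0.06 SE, adjusted p = 0.0325). These calls rested on few libraries: 10, 7 and 5 members were called without vehicle replicates 1, 2 and 3, and 6 and 5 without Okbyeongpung-san replicates 2 and 3. Without vehicle replicate 3 the NDUFB1 difference had an adjusted p of 0.0533.

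At 100 µg/mL Okbyeongpung-san, 0 members were higher and 2 lower, NDUFS3 (-0.44) and ATP5F1D (-0.42), with 3.66% of all genes called (2.04% higher and 1.62% lower). At 20 µg/mL edgeR called 0 members in either direction, with 2.24% of all genes called (1.18% higher and 1.06% lower), while 6 were higher and 4 lower at an unadjusted p under 0.05 and DESeq2 called 1 higher and 2 lower. At 100 µg/mL, 0 members were called when any 1 library was left out. The batch D library exceeded the batch E library by a median log2 ratio of 0.41 over the members at 20 µg/mL (85 of 91 above 0), of 0.45 at 100 µg/mL (86 of 91) and of 0.13 at 500 µg/mL (68 of 91). NDUFB1 was at 39.3 CPM in batch D and 25.9 CPM in batch E at 20 µg/mL, and at 40.6 and 20.7 CPM in the same batches at 100 µg/mL. Set against the vehicle, which is of batch E, the batch E library alone gave medians of -0.22, -0.36 and 0.10 at 20, 100 and 500 µg/mL. Batch D gave 0.10, 0.06 and 0.28.

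Soyo-san had 1 library per concentration, so its differences have no replicate check and no test was made. Its libraries were of batch D by their labels and the vehicle of batch E, so batch and extract cannot be told apart. Between the Okbyeongpung-san libraries, batch D exceeded batch E by member medians of 0.41, 0.45 and 0.13 at 20, 100 and 500 µg/mL. Members past a log2 ratio of 0.32 to the vehicle mean, on log2(CPM + 1), were counted instead. At 20 µg/mL, 21 were that much higher and 3 that much lower, with 11.4% of all genes past this ratio (4.71% higher and 6.66% lower). At 100 µg/mL, 17 were higher and 2 lower, with 9.83% of all genes past it (4.15% higher and 5.68% lower). At 500 µg/mL, 11 were higher and 2 lower, with 15.4% of all genes past it (6.93% higher and 8.46% lower). The median log2 ratios were 0.19, 0.15 and 0.12. Without vehicle replicate 3, 12 members were past this ratio at 100 µg/mL. At 500 µg/mL the highest ratios among members at 10 CPM or more in vehicle were those of NDUFB1 (0.90), UQCRB (0.60) and NDUFAF8 (0.49), and the lowest those of ATP5MD (-0.41), NDUFA3 (-0.31) and ATP5MF (-0.27).

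Comparing 500 with 20 µg/mL within an extract has no vehicle library on either side. The vehicle was still part of each fit, and so of its filter, scaling and estimate of the spread. For Soshiho-tang, 9 members were higher and 1 lower at 500 µg/mL (median 0.10). This is 9.89% and 1.1% of members, against 14.6% and 14.2% of all genes (28.9% called), so the share was below the background. COX7A2L had 60.5, 65.3 and 66.6 CPM at 500 µg/mL, against 54.4, 54.5 and 51.8 CPM at 20 µg/mL, without overlap (0.26 ± 0.06 SE, adjusted p = 0.00296, edgeR). NDUFAF1 had 14.4, 17.4 and 17 CPM, against 12.1, 14.1 and 11.6 CPM, also without overlap (0.36 ± 0.09 SE, adjusted p = 0.00544). These 2 calls held in all 15 alternative settings tried. ATP5MC1, which encodes the proton-carrying c subunit of ATP synthase, had 74.7, 77.5 and 83.6 CPM, against 68, 61.3 and 67.3 CPM (0.26 ± 0.07 SE, adjusted p = 0.00714). The mean of ATP5MC1 was 78.6 CPM at 500 µg/mL and 75.8 CPM in vehicle, and at 20 µg/mL it was called lower than vehicle (-0.21, adjusted p = 0.0355, edgeR). The other ATP5MC genes, ATP5MC2 and ATP5MC3, were not called between the concentrations (0.03 for both, adjusted p = 0.805 and 0.902). ATP5MD was at 19.4, 18.9 and 19.5 CPM, against 15.5, 13.9 and 15.4 CPM (0.37 ± 0.11 SE, adjusted p = 0.0162), so at 500 µg/mL it lay within the vehicle range of 16.5 to 23.8 CPM.

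NDUFA4L2 had the largest log2 fold change between the Soshiho-tang concentrations, at a very low level. It had 0.942, 1.36 and 0.663 CPM at 500 µg/mL, against 0.483, 0.506 and 0.632 CPM at 20 µg/mL, which is 29, 40 and 18 counts against 13, 17 and 17 (0.87 ± 0.29 SE, adjusted p = 0.0254, edgeR). Without replicate 2 at 500 µg/mL the value was 0.58 (adjusted p = 0.199). NDUFA4L2 overlaps SHMT2, a gene on the other strand at 115 CPM in vehicle, which was itself higher at 500 than at 20 µg/mL (0.56, adjusted p = 3.64e-09), so the NDUFA4L2 value is uncertain. SDHA, the lower member, had 101, 105 and 106 CPM at 500 µg/mL, against 113, 119 and 109 CPM at 20 µg/mL, a small difference without overlap (-0.13 ± 0.05 SE, adjusted p = 0.0492). NDUFB3, NDUFA3, NDUFAF4 and ATP5ME were the remaining higher members, at 0.29, 0.26, 0.23 and 0.34. Of 15 alternative settings, the call held in 4 for NDUFB3, in 10 for NDUFA3, in 10 for NDUFAF4, in 7 for ATP5ME and in 7 for SDHA. The number of members called between the Soshiho-tang concentrations was 6, 3, 6 and 5 without the libraries of 20 µg/mL replicate 1, 20 µg/mL replicate 2, 500 µg/mL replicate 2 and 500 µg/mL replicate 3.

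Yijin-tang showed 1 called member between 500 and 20 µg/mL, with 5.64% of all genes called (2.7% higher and 2.94% lower) and a median of -0.04. This was COX6B2, the testis isoform of a complex IV subunit, at 41, 34 and 35 counts (1.2 to 1.32 CPM) at 500 µg/mL, against 24, 11 and 13 counts (0.378 to 0.969 CPM) at 20 µg/mL, without overlap (1.03 ± 0.27 SE, adjusted p = 0.026, edgeR). DESeq2 called 0 members, and so did edgeR without replicate 1 or 2 at 500 µg/mL or replicate 2 or 3 at 20 µg/mL. For Okbyeongpung-san, 4 members were higher and 0 lower with 10.3% of all genes called (5.21% higher and 5.1% lower) and a median of 0.23. They were NDUFAF1 (0.57 ± 0.11 SE), NDUFS3 (0.42 ± 0.11 SE), NDUFB5 (0.34 ± 0.09 SE) and COX7A2L (0.26 ± 0.07 SE). NDUFS3, a core subunit of the ubiquinone-reducing arm, was at 46.8 and 42.8 CPM at 500 µg/mL, against 31.4 and 35.1 CPM at 20 µg/mL, and its neighbour PTPMT1, which overlaps it on the same strand, was not called (-0.03, adjusted p = 0.899). The edgeR fits without replicate 2 at either concentration called 0 members, and without replicate 3 at 20 µg/mL 7. Within batch E and within batch D, the log2 ratios of 500 to 20 µg/mL were 0.68 and 0.40 for NDUFAF1, 0.56 and 0.28 for NDUFS3, 0.36 and 0.33 for NDUFB5, and 0.30 and 0.23 for COX7A2L. The members' median was 0.30 within batch E and 0.16 within batch D, with 78 and 76 of 91 above 0.

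**Figure D4:**
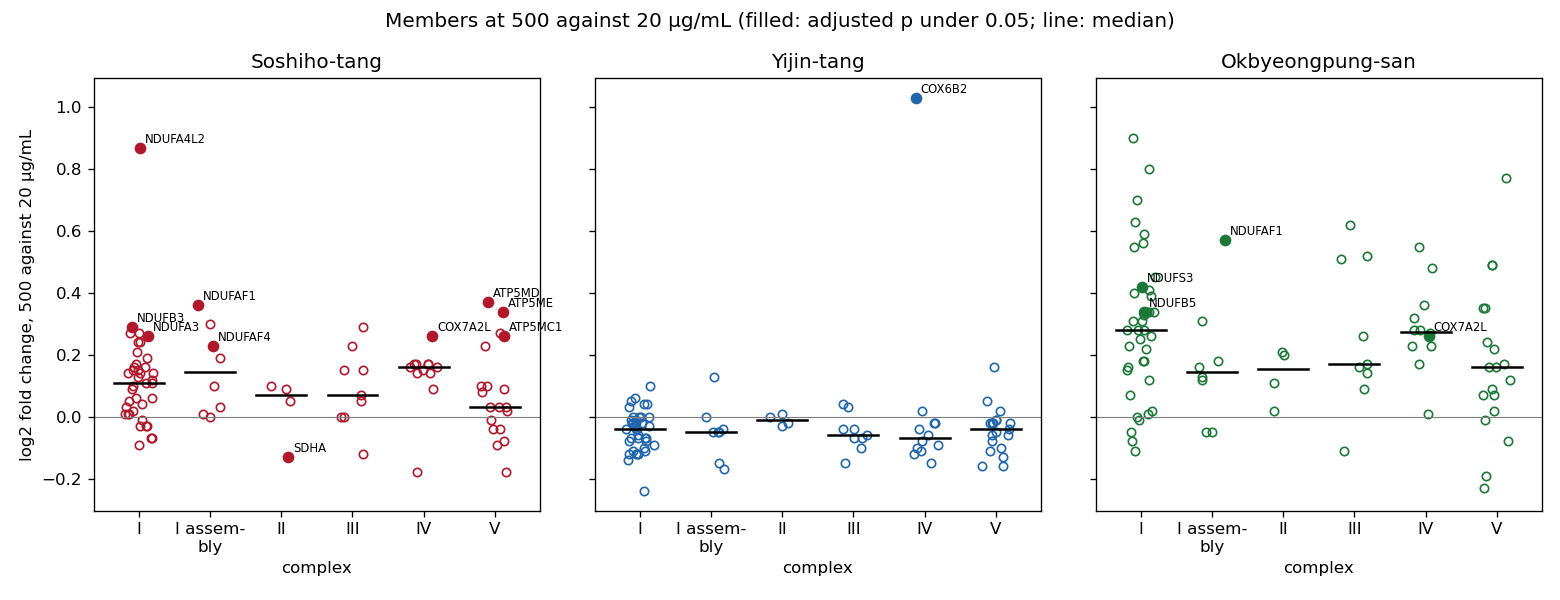
Log2 fold change at 500 against 20 µg/mL of the 91 members, by complex and extract, with filled points for adjusted p under 0.05 and lines at the median of each complex. Soshiho-tang has 10 filled points, Yijin-tang 1 (COX6B2) and Okbyeongpung-san 4, and most Okbyeongpung-san points lie above 0.

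Whether the difference between 500 and 20 µg/mL itself differed between Soshiho-tang and Yijin-tang was tested as an interaction. It was called for 4 members, 3 above and 1 below 0, with 13.6% of all genes called (6.63% above and 6.99% below) and a median of 0.17. NDUFA3, an accessory subunit of the membrane arm, had 36, 31.9 and 37.2 CPM at 500 µg/mL against 31.4, 25.7 and 30.7 CPM at 20 µg/mL for Soshiho-tang, but 32.5, 32.3 and 32.3 CPM at 500 µg/mL against 39.8, 36.6 and 38.6 CPM at 20 µg/mL for Yijin-tang. The interaction was 0.50 ± 0.13 SE (adjusted p = 0.00977, edgeR) and held in 20 of 21 alternative settings. NDUFA3 overlaps TFPT on the other strand, which was higher at 500 than at 20 µg/mL Soshiho-tang (0.26, adjusted p = 0.00952) and not called for Yijin-tang (0.09, adjusted p = 0.571). The others, NDUFAF4 (0.38 ± 0.11 SE), COX7A2L (0.28 ± 0.09 SE) and COX6B2 (-1.20 ± 0.39 SE), held in 15, 10 and 7 of 21. Leaving out 1 library gave between 1 and 7 called members, the lowest without replicate 2 of Yijin-tang or replicate 3 of Soshiho-tang at 500 µg/mL and the highest without replicate 1 of Yijin-tang at 500 µg/mL. Without replicate 3 of Yijin-tang at 500 µg/mL it was 2. For NDUFAF1 the interaction was 0.36 ± 0.13 SE and was not called (adjusted p = 0.084).

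Soshiho-tang and Yijin-tang were also compared directly, with libraries of the same set. At 500 µg/mL, 3 members were higher with Soshiho-tang and 2 lower (5.49% of members), with 25.2% of all genes called (12.5% higher and 12.8% lower). The higher ones were NDUFA4L2 (1.03), NDUFAF1 (0.30) and COX7A2L (0.24), and the lower ones COX6B2 (-1.04, adjusted p = 0.00478) and SDHA (-0.14, adjusted p = 0.0378). Leaving out replicate 1 or 2 of Yijin-tang, or 2 or 3 of Soshiho-tang, left 3 calls. At 20 and 100 µg/mL edgeR called 0 members, with 0.13% of all genes called at 20 µg/mL (0.0237% higher and 0.107% lower) and 0.753% at 100 µg/mL (0.273% higher and 0.48% lower). At an unadjusted p under 0.05, 1 member was higher and 13 lower at 20 µg/mL, and 0 higher and 14 lower at 100 µg/mL, and DESeq2 called 0 higher and 2 lower at 20 µg/mL and 0 at 100 µg/mL. The median log2 difference was -0.12 at 20 µg/mL (79 of 91 members below 0) and -0.13 at 100 µg/mL (85 of 91 below 0), so most members had slightly lower values with Soshiho-tang at these concentrations, with no single call by edgeR. These differences went with transcript length, with rho of 0.44 at 20 µg/mL and 0.37 at 100 µg/mL over the members. Over all genes rho was 0.21 and 0.24, and the cause of the shift was not tested.

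Other genes of the pathway were described from lists of their own. The 13 mitochondrially encoded subunits were mostly lower than vehicle, unlike the nuclear ones: at 500 µg/mL, 0 were higher and 12 lower with Soshiho-tang (median -0.84), 0 higher and 8 lower with Yijin-tang (median -0.60) and 0 higher and 12 lower with Okbyeongpung-san (median -1.12). Of all genes, 21.1%, 15.2% and 11.4% were lower in the same comparisons. With Soshiho-tang, MT-ND6 and MT-ND4 of complex I differed by -1.39 and -1.01 and MT-ATP8 of complex V by -1.45 (adjusted p = 4.16e-06, 0.000173 and 1.44e-05, edgeR). Between 500 and 20 µg/mL Soshiho-tang, where 9 nuclear members were higher, edgeR called 0 of the 13 mitochondrial genes (0 also at an unadjusted p under 0.05; median -0.06). Mitochondrial counts made up 6.93% to 7.79% of the libraries at 500 µg/mL Soshiho-tang, 6.7% to 10.61% at 500 µg/mL Yijin-tang and 5.68% to 6.8% at 500 µg/mL Okbyeongpung-san, against 10.47% to 10.7% in vehicle. With mitochondrial genes left out before scaling, 35 nuclear members were higher and 2 lower at 500 µg/mL Soshiho-tang, 26 higher and 2 lower at 500 µg/mL Yijin-tang, and 14 higher and 1 lower at 500 µg/mL Okbyeongpung-san.

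**Figure D5:**
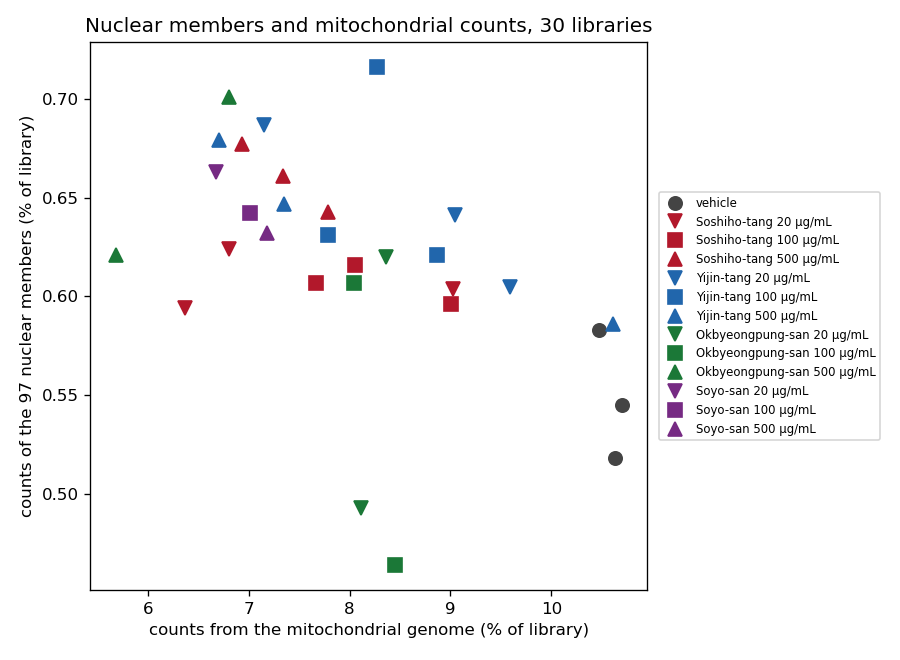
Share of each library's counts from the 97 nuclear members (%) against the share from the mitochondrial genome (%), 1 point per library. The vehicle libraries lie at the lower right (0.518% to 0.583% and 10.47% to 10.7%), the extract libraries mostly at the upper left, and the 2 lowest points are the batch E libraries at 20 and 100 µg/mL Okbyeongpung-san.

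Other nuclear genes of the pathway are given as counts beside those of all genes. Of 48 assembly factors outside the NDUFAF group, 30 were higher and 1 lower at 500 µg/mL Soshiho-tang (median 0.25), among them FMC1 for complex V (0.94), COX17, a copper chaperone of complex IV (0.66), and TMEM126B for complex I (0.62). Of 78 mitochondrial ribosomal proteins, which translate the mitochondrial subunits, 43 were higher and 0 lower (median 0.22). Of 15 regulators of respiratory chain genes, 7 were higher and 0 lower (median 0.22), led by the mitochondrial DNA helicase TWNK (0.41), the coactivator PPARGC1B (0.40) and MTERF3 (0.34). Coenzyme Q synthesis had 6 of 11 genes higher and 1 lower (median 0.22), and the citric acid cycle 7 of 14 higher and 2 lower (median 0.12). CYCS, the electron carrier cytochrome c, was higher (0.44 ± 0.08 SE, adjusted p = 0.000116, edgeR). For comparison, 23 of 77 cytosolic ribosomal proteins were higher and 5 lower (median 0.07), all beside the 43.9% of genes called in that comparison. At 500 against 20 µg/mL Soshiho-tang, 15 of the 48 assembly factors and 22 of the 78 mitochondrial ribosomal proteins were higher and 0 of either lower (medians 0.14 and 0.11), with 28.9% of all genes called (14.6% higher and 14.2% lower). With Yijin-tang, 0 assembly factors and 1 mitochondrial ribosomal protein were called (medians 0.05 and -0.02), with 5.64% of all genes called (2.7% higher and 2.94% lower).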

How the data were processed

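RNA sequencing of 30 libraries was analysed. The authors deposited 1 table of expected counts (estimated counts) for Ensembl gene identifiers. The submitters' processing notes name FastQC 0.11.9, Trim Galore 0.6.5, STAR 2.7.3a, RSEM 1.3.3 and GRCh38. The strand setting of the counting is not given in the sources used here. Counts were rounded to whole numbers, genes with low counts were removed (filterByExpr, minimum count 10, minimum total 15), and TMM-scaled quasi-likelihood fits were made in edgeR 4.0.16 (R 4.3.3): one for vehicle, Soshiho-tang and Yijin-tang (21 libraries), one for vehicle and Okbyeongpung-san (9 libraries), with p-values adjusted over all genes. CPM values use TMM-scaled library sizes. Soyo-san was given as log2 ratios with a pseudocount of 1 CPM. Alternatives were DESeq2 1.42.0, other scalings, filters, fits and offsets, a replicate block and leaving out each library. The fits were tested on simulated data.

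Named members are up to 3 called genes per complex with the largest change at 500 µg/mL and between 500 and 20 µg/mL, plus isoform pairs, complex II, ATP5IF1, untested members and interaction calls. Others were named after their values were seen. Members and lists were chosen with earlier results of these data known. One member is counted in all totals but its own values are not reported here.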

Additional observations from a re-analysis of the deposited data

Results flagged for a closer look

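The difference between 500 and 20 µg/mL was unlike in Soshiho-tang and Yijin-tang for 4 members, by the interaction test in edgeR. This is 4.4% of members, against 13.6% of all genes (6.63% above and 6.99% below 0), so the share was below the background. The interaction, Soshiho-tang minus Yijin-tang on the log2 scale, was 0.50 for NDUFA3 (adjusted p = 0.00977), 0.38 for NDUFAF4 (adjusted p = 0.0257), 0.28 for COX7A2L (adjusted p = 0.038) and -1.20 for COX6B2 (adjusted p = 0.0451). For NDUFA3 the change between the concentrations was 0.26 with Soshiho-tang and -0.24 with Yijin-tang, for NDUFAF4 0.23 and -0.15, for COX7A2L 0.26 and -0.02, and for COX6B2 -0.18 and 1.03. The calls held in 20 of 21 alternative settings for NDUFA3, in 15 for NDUFAF4, in 10 for COX7A2L and in 7 for COX6B2. COX6B2 reached at most 1.32 CPM in these libraries.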

How the results depend on the processing

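Under RLE or upper-quartile scaling, or without mitochondrial genes, the counts of called members stayed within 1.5 times those reported. Over all settings but left-out libraries, 111 of 150 counts did so, and 487 of 566 values of named members stayed past the threshold. With a library left out these were 60 of 106 and 236 of 383. No named value reversed. DESeq2 gave no adjusted p for some low genes. The cause of the changes was not tested. COX6B2 and NDUFA4L2 rest on few counts. The NDUFAF7 call at 500 µg/mL Okbyeongpung-san held in 1 of 14 settings.

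In comparisons with vehicle, no filter gave 30 calls at both 20 and 100 µg/mL Soshiho-tang, and 13, 17 and 34 at 20, 100 and 500 µg/mL Okbyeongpung-san. One fit of 27 libraries gave 12 and 19 calls at 100 and 500 µg/mL Soshiho-tang, 13, 22 and 13 at 20, 100 and 500 µg/mL Yijin-tang, and 5, 9 and 27 at 20, 100 and 500 µg/mL Okbyeongpung-san. Fits of the compared groups alone gave 30 at 100 µg/mL Soshiho-tang, and 3, 5 and 26 at 20, 100 and 500 µg/mL Okbyeongpung-san. DESeq2 gave 3 and 5 at 20 and 100 µg/mL Okbyeongpung-san, and length and GC offsets 0 at 100 µg/mL.

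For 500 against 20 µg/mL, no filter gave 22 calls for Soshiho-tang, 2 for Yijin-tang and 30 for Okbyeongpung-san, DESeq2 gave 0 for Yijin-tang and 7 for Okbyeongpung-san, one fit gave 3 for Soshiho-tang and 15 for Okbyeongpung-san, and fits of the compared groups gave 20, 0 and 1 for Soshiho-tang, Yijin-tang and Okbyeongpung-san. For the interaction, no filter gave 16 and one fit 2. For Soshiho-tang against Yijin-tang, no filter gave 8 and 6 at 20 and 100 µg/mL, and DESeq2 2 at 20 µg/mL.

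Leaving out 1 library at a time gave, against vehicle at 20, 100 and 500 µg/mL, 10 to 19, 12 to 18 and 22 to 40 calls for Soshiho-tang, 15 to 39, 21 to 46 and 14 to 30 for Yijin-tang, 0, 0 and 5 to 10 for Okbyeongpung-san, and 21 to 31, 12 to 22 and 13 to 17 members past the ratio for Soyo-san. For 500 against 20 µg/mL it gave 3 to 13 for Soshiho-tang, 0 to 1 for Yijin-tang and 0 to 7 for Okbyeongpung-san, for the interaction 1 to 7, and at 20, 100 and 500 µg/mL of Soshiho-tang against Yijin-tang 0 to 1, 0 and 3 to 4. Where 1 Okbyeongpung-san library remained, it was assumed to vary like the other groups.

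Among vehicle, Soshiho-tang and Yijin-tang, replicate numbers did not pair the libraries. Deviations of same-numbered libraries correlated at -0.17 to 0.29 between these extract groups and at -0.06 to 0.16 with vehicle. Okbyeongpung-san was not in this check, and its replicate numbers are also its batches. With a replicate block, 20, 21 and 40 members were called at 20, 100 and 500 µg/mL Soshiho-tang against vehicle, 42, 45 and 30 for Yijin-tang and 0, 0 and 17 for Okbyeongpung-san. The replicate block gave 10, 2 and 5 calls for 500 against 20 µg/mL of Soshiho-tang, Yijin-tang and Okbyeongpung-san, 1, 1 and 6 between Soshiho-tang and Yijin-tang at 20, 100 and 500 µg/mL, and 5 for the interaction.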
